A study of Homo sapiens with 13 samples.

Results

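A set of 10 genes that build the neuronal cytoskeleton were followed across an RNA-seq experiment on small cell lung cancer (SCLC) cells: TUBB3, TUBB2B, MAP1B, MAP2, MAPT, STMN2, GAP43, NEFL, NEFM and INA. They were chosen by symbol from the 56831 genes of the deposited expression tables, and all 10 were found. The experiment compared untreated cells with cells kept for 14 days in 100 nM FHD-286, an inhibitor of the ATPases SMARCA4 and SMARCA2, which drive SWI/SNF chromatin remodelling. It used H82 (3 untreated and 3 treated libraries) and H146 (3 untreated and 4 treated libraries), established human SCLC lines labelled wild type. All 4 groups grew in RPMI1640 with fetal bovine serum, the drug was renewed every 48 h, and the untreated groups are labelled as receiving no treatment, with no vehicle named. The labels do not say that the libraries came from separate cultures, so the p-values below measure the spread between libraries, which may be technical.

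Microtubules are hollow polymers of alpha and beta tubulin that serve as tracks for transport along the axon. Microtubule-associated proteins (MAPs) bind their outer surface, MAP2 mainly in dendrites and tau mainly in axons, whereas proteins of the stathmin family bind free tubulin dimers and growth-associated protein GAP-43 sits under the membrane of the growth cone. Neurofilaments, together with alpha-internexin, are the intermediate filaments of mature and developing axons. Many SCLC cells, like other neuroendocrine cells, carry a part of this neuronal programme, and several of these genes serve as neural markers in pathology.

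Levels are in TPM (transcript shares scaled to a fixed total), which correct for gene length and sum to 1000000 in each library, so the read depth behind each value is unknown. All 8 neuroendocrine markers of a chosen list were detected in every library, with a sum of 1042 to 1131 TPM in untreated H82, 1024 to 1479 TPM in treated H82, 4634 to 5196 TPM in H146 without drug and 3074 to 3895 TPM in H146 with it. The similar sums of H82 cover opposite changes. By the test given below, 3 markers were lower there and 3 higher, beside 45.5% and 13.1% of all genes. SCG3 fell most, by 3.11 (log2), and SCG2 rose most, by 3.16. SCG2 started low, at 0.572 to 1.13 TPM untreated, and its treated libraries spread widely, at 4.41, 8.83 and 73.0 TPM. Genes at 1 TPM or more numbered 21227 to 21772 in untreated and 15554 to 16633 in treated H82, against 17476 to 17965 and 18778 to 19309 in H146, and mitochondrial genes took 22.1% to 24.1% and 12.3% to 14.9% of TPM in H82 and 7.56% to 8.86% and 3.82% to 11.4% in H146. Marker lists of other cell types differed between the groups too. The 7 epithelial markers summed to 2.92 to 4.18 TPM in untreated and 4.66 to 127 TPM in treated H82, and to 2442 to 2572 TPM and 841 to 1053 TPM in H146, and 0 to 2 of them were listed at 0 in a given library. The H82 treated library 2 stood apart with 127 TPM, against 10.4 and 4.66 TPM in the other treated libraries. The 6 fibroblast markers summed to at most 2.50 TPM in untreated and 7.98 to 35.3 TPM in treated H82, and to 6.78 to 8.78 TPM and 17.1 to 32.7 TPM in H146. The 6 glial markers summed to 6.15 to 9.43 TPM in untreated and 3.63 to 8.27 TPM in treated H82, and to 38.3 to 41.9 TPM and 16.4 to 56.9 TPM in H146. The 6 leukocyte markers summed to 17.1 to 23.3 TPM in untreated and 2.33 to 6.74 TPM in treated H82, and to 9.34 to 12.8 TPM and 12.8 to 28.1 TPM in H146. In H82 the mean of CSF1R went from 16.8 to 1.23 TPM, and that of CD14 from 2.01 to 2.90 TPM. The part of these shifts in the results below was not tested.

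The summed TPM of the 10 cytoskeleton genes was 677 to 706 without and 183 to 358 with treatment in H82, and 2765 to 2825 without and 1705 to 2376 with treatment in H146. In H82, MAP1B, STMN2, NEFL, NEFM and INA were lower in treated cells and GAP43 was higher, while TUBB2B, MAP2 and MAPT did not pass the test and TUBB3 was too low to enter it. In H146, TUBB2B, MAP1B, MAP2 and MAPT were lower, GAP43, NEFL and NEFM were higher, and TUBB3, STMN2 and INA did not pass. Each test was limma on log2(TPM + 1) within the line, leaving out genes that did not reach 1 TPM in 3 or more libraries, and a gene was called when its p-value adjusted over all genes tested was under 0.05. The 6 called members of H82 (5 lower, 1 higher) stand beside 58.6% of all 19770 genes called there, 45.5% lower and 13.1% higher. The 7 called members of H146 (4 lower, 3 higher) stand beside 47.9% of all 19585 genes, 15.5% lower and 32.5% higher. Treated and untreated libraries did not overlap for 8 members in H82, 6 lower and 2 higher, beside 67.8% of genes tested (51.4% lower, 16.4% higher), and for 6 members in H146, 3 lower and 3 higher, beside 52.9% (17.3% lower, 35.7% higher). The 6 lower members of H82 include TUBB3, which is not among the 19770 genes tested behind these shares. GAP43 in H82 and NEFL and NEFM in H146 reached the filter through treated libraries alone, none of the untreated libraries holding 1 TPM, so these 3 had to differ and their calls are given as descriptions.

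The median difference of the tested members was -1.39 on the log2 scale in H82, where that of all genes was -0.56, and -0.19 in H146, where that of all genes was 0.25. With library sizes set by the median of ratios, the median of all genes moved to -0.14 (H82) and -0.02 (H146). Lower genes then made up 57.6% of the H82 calls in place of 77.7%, and 54.1% of the H146 calls in place of 32.3%. Each called difference of a member within a line is therefore also given relative to the median of all genes. In bulk RNA, fewer cells that express a gene and less of its RNA per cell cannot be told apart.

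**Figure D1:**
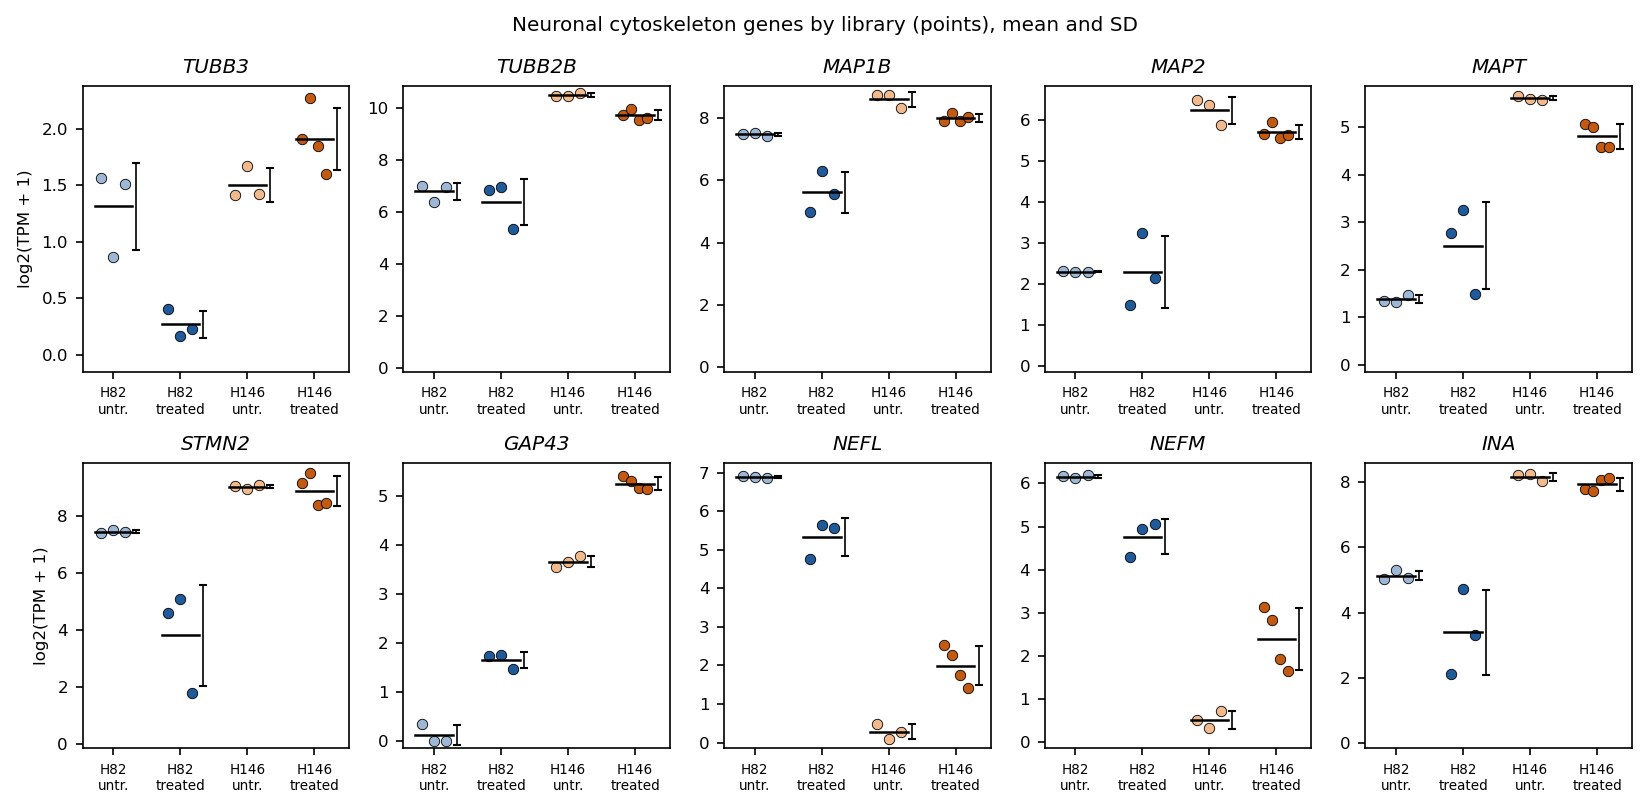
Level of each of the 10 genes in each of the 13 libraries, on the vertical axis as log2(TPM + 1), by line and treatment; points are libraries, horizontal lines are means and error bars are SD. STMN2, NEFL and NEFM in H82 sit lower in every treated library than in any untreated one, and GAP43 sits higher in treated libraries of both lines.

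**Figure D2:**
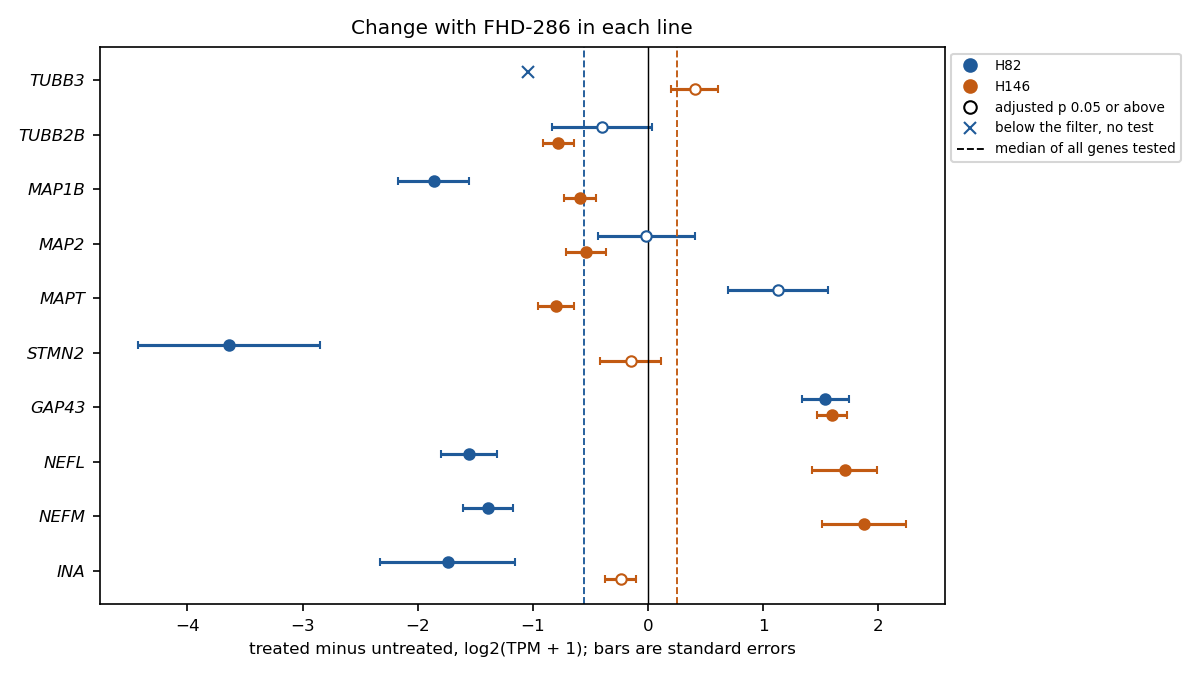
Difference between treated and untreated cells in log2(TPM + 1) for each gene (horizontal axis), in H82 (blue) and H146 (orange), with standard errors as bars; filled points passed the test, the cross is TUBB3 in H82, which was not tested, and the dashed lines are the medians of all genes tested (-0.56 in H82 and 0.25 in H146). NEFL and NEFM lie on opposite sides of 0 in the 2 lines, and their H146 points are descriptions, since only treated libraries reached 1 TPM there.

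Among the tubulins, TUBB2B encodes a beta tubulin that is abundant in developing neurons. It lies on the minus strand of chromosome 6 (hg38, chr6:3223324-3231730, ENSG00000137285.11). In H146, TUBB2B stood at 1421, 1397 and 1540 TPM in untreated libraries and at 849, 1011, 754 and 787 TPM in treated ones. The groups were separate, and the mean of 850.5 ± 114 TPM (SD, n = 4) was 1.71-fold below 1452 ± 76.3 TPM (SD, n = 3). The difference was -0.78 ± 0.14 (log2, SE; limma adjusted p = 0.00224), or -1.03 relative to the median of all genes. In H82 the gene stood at 128, 83.4 and 123 TPM in untreated libraries and at 115, 124 and 40.1 TPM in treated ones. There the groups overlapped, with only the H82 treated library 3 below the untreated range, and the difference of -0.40 ± 0.43 (limma adjusted p = 0.460) became 0.12 without that library. TUBB2B and TUBB2A are near-identical paralogs, so reads may have been split between them; the part of this was not tested.

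TUBB3 encodes the class III beta tubulin, a standard immunohistochemical marker of neurons. It lies on the plus strand at chr16:89921392-89938761 (hg38, ENSG00000258947.8). TUBB3 stood at 1.95, 0.820 and 1.85 TPM in untreated and 0.324, 0.125 and 0.173 TPM in treated H82. These groups did not overlap, at a mean 7.42-fold lower in treated cells, and the exact permutation test gave p = 0.1 (two-sided), the smallest p that 3 against 3 libraries allow. In H146 it stood at 1.66, 2.19 and 1.68 TPM in untreated and 2.75, 3.82, 2.59 and 2.03 TPM in treated libraries, groups that overlapped, with a difference of 0.41 ± 0.20 (log2, SE; limma adjusted p = 0.128). Of the exon bases of the reference TUBB3 transcript in GENCODE 44, 92.8% are shared with a same-strand protein-coding gene, ENSG00000198211.8, as are 95.8% of its coding bases. Gene counting with STAR sets aside reads that overlap more than 1 gene, so the low TUBB3 level is uncertain; the part of this was not tested.

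The other beta tubulins put these levels in proportion. In untreated H146, TUBB2B made up 39.7% ± 1.84 (SD, n = 3) of all beta tubulin TPM, TUBB 29.1% ± 0.69, TUBB4B 19.8% ± 1.59 and TUBB2A 10.3% ± 0.57. Treated H146 held 26.2% ± 5.09 (SD, n = 4) TUBB2B and 4.79% ± 1.01 TUBB2A, and 44.5% ± 2.81 TUBB, the ubiquitous form. The ranges of all 3 of these shares were separate between treated and untreated H146. In H82, TUBB2B took 4.69% ± 0.60 of beta tubulin TPM untreated and 4.96% ± 3.49 treated (SD, n = 3), while TUBB went from 41.4% ± 1.96 to 61.6% ± 5.51 and TUBB4B from 49.2% ± 1.22 to 28.9% ± 9.46. TUBB3 made up at most 0.125% in any library. These shares are descriptions without a test.

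**Figure D3:**
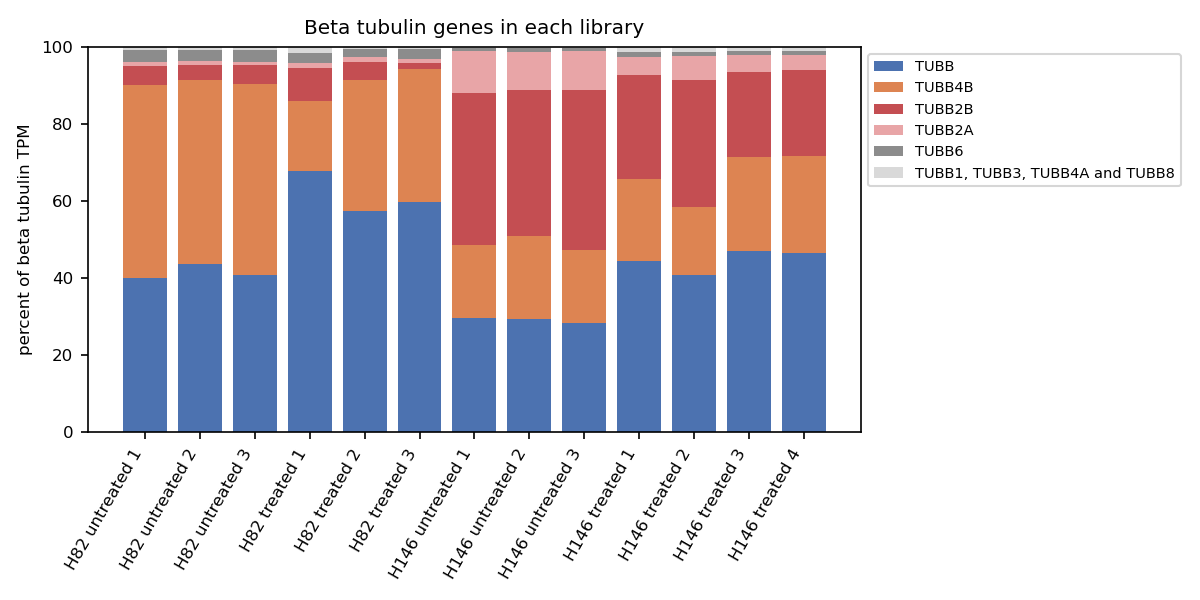
Share of each beta tubulin gene in the summed beta tubulin TPM (vertical axis, percent) in each of the 13 libraries. TUBB2B (dark red) fills 37.9% to 41.6% of the H146 bars without treatment, 22.1% to 33.1% of those with treatment, and 1.65% to 8.62% of the H82 bars.

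Of the MAPs, MAP1B, the form that appears early in axon growth, was the only member called lower in both lines. It spans chr5:72107234-72209565 on the plus strand (hg38, ENSG00000131711.15). Its H82 libraries gave 179, 182 and 171 TPM untreated and 30.9, 77.6 and 46.0 TPM treated. Every treated library was below every untreated one, a fall in mean of 3.44-fold, from 177.3 ± 5.86 TPM to 51.5 ± 23.8 TPM (SD, n = 3 each). The difference was -1.86 ± 0.31 (log2, SE; limma adjusted p = 0.00214), or -1.30 relative to the median of all genes, and -2.20 without the H82 treated library 2. In H146 the libraries gave 425, 424 and 318 TPM untreated and 240, 287, 237 and 262 TPM treated. Again no library overlapped, and the difference was -0.59 ± 0.14 (limma adjusted p = 0.00935), or -0.84 relative to the median of all genes.

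MAP2, the dendritic MAP, and MAPT, which encodes tau, stood far higher in H146 than in H82. MAP2 lies at chr2:209424047-209734147 (plus strand, ENSG00000078018.22) and MAPT at chr17:45894527-46028334 (plus strand, ENSG00000186868.18), both hg38. MAP2 gave 89.2, 82.2 and 57.7 TPM in untreated H146 and 49.3, 61.7, 46.7 and 48.9 TPM in treated H146. The untreated library 3 lay within the treated range, and the difference of -0.54 ± 0.17 (limma adjusted p = 0.0322), or -0.79 relative to the median of all genes, lost its call, at -0.42 to -0.52, without the H146 untreated library 1 or 2 or the treated library 1, 3 or 4. In H82 MAP2 gave 3.97, 3.90 and 3.91 TPM untreated and 1.81, 8.42 and 3.40 TPM treated, so that the treated libraries fell on both sides of a narrow untreated range. Their difference was -0.01 ± 0.42 (limma adjusted p = 0.981), and its sign turned with the library size method and with the library left out.

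MAPT gave 49.3, 47.6 and 46.4 TPM in untreated H146 and 32.8, 31.0, 23.0 and 23.0 TPM in treated H146. These groups were separate, 1.74-fold apart, with a difference of -0.80 ± 0.16 (log2, SE; limma adjusted p = 0.00405), or -1.04 relative to the median of all genes. In H82 the same gene gave 1.53, 1.49 and 1.78 TPM untreated and 5.83, 8.56 and 1.81 TPM treated. Treated values lay above the untreated ones, though the H82 treated library 3 barely did, and the difference of 1.13 ± 0.44 (limma adjusted p = 0.0597) was not called. Without that library it was 1.64, and with median of ratios library sizes 1.48, and both were called. Of the exon bases of the reference MAPT transcript, 1.10% overlap the antisense gene MAPT-AS1, and whether the counting used strand is not given in the sources used here.

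STMN2, which encodes the neuron-enriched stathmin SCG10 of growing axons, showed the widest fall among the members tested in H82. It lies on the plus strand at chr8:79611117-79666158 (hg38, ENSG00000104435.14). In H82, STMN2 gave 169, 182 and 173 TPM in untreated libraries and 23.0, 33.0 and 2.43 TPM in treated ones. No library overlapped, the mean was 8.97-fold lower, and the difference was -3.64 ± 0.79 (log2, SE; limma adjusted p = 0.00657), or -3.08 relative to the median of all genes. It was -2.62 without the H82 treated library 3, the lowest, and -4.27 without the H82 treated library 2. In H146, STMN2 gave 529, 499 and 543 TPM untreated and 571, 721, 337 and 355 TPM treated. Here the treated libraries split, 1 and 2 above every untreated library and 3 and 4 below every untreated one, and the difference of -0.15 ± 0.26 (limma adjusted p = 0.657) was not called. It was -0.60 and called without libraries 1 and 2, and 0.29 and not called without libraries 3 and 4, a split chosen after the values were seen. With library weights it was -0.53 and called. The same division of the treated H146 libraries appeared outside STMN2. The glial markers summed to 39.5 and 56.9 TPM in libraries 1 and 2, and to 18.2 and 16.4 TPM in 3 and 4. The neuroendocrine markers summed to 3756 and 3895 TPM, against 3074 and 3130 TPM. Correlations over all genes were 0.984 between 1 and 2 and 0.991 between 3 and 4, against 0.970 to 0.983 across the pairs. What divides the libraries was not tested.

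GAP43, whose product regulates actin at the growth cone membrane, was the only member called higher in both lines. Its H82 call is a description, since only treated libraries reached 1 TPM there. The gene lies on the plus strand at chr3:115623510-115721490 (hg38, ENSG00000172020.13). In H146 it gave 10.8, 11.6 and 12.7 TPM untreated and 41.7, 38.8, 35.1 and 34.3 TPM treated. The groups lay far apart, with means of 11.7 ± 0.95 TPM (SD, n = 3) and 37.5 ± 3.44 TPM (SD, n = 4), a 3.20-fold rise of 1.60 ± 0.13 (log2, SE; limma adjusted p = 5.52e-05), or 1.35 relative to the median of all genes. In H82 it gave 0.276 TPM in the untreated library 1 and was listed at 0 in the other two, and gave 2.35, 2.39 and 1.77 TPM treated. The H82 difference was 1.54 ± 0.20 (limma adjusted p = 0.000849), or 2.10 relative to the median of all genes. Its size depends on the constant added before the log, being 3.86 with 0.1 TPM, and no fold is given because 2 of 3 untreated libraries are at 0.

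Promoter sequence was taken from RefSeq windows of GRCh38.p14 that hold 250 bases before each annotated start and 50 after. It is shown for GAP43 (called higher in both lines, in H82 as a description), MAP1B (called lower in both) and INA (called lower in H82). Only plus-strand windows with a match could be shown, so that these hold a match was fixed by the choice. A MAP2 window with a match is not shown. No window of MAPT, STMN2, NEFL or NEFM was searched, so the promoters of these members were not tested. The windows searched were those of 6 members, GAP43, INA, MAP1B, MAP2, TUBB2B and TUBB3, with 10 windows in all. They were searched on both strands for CAGATG and CAGCTG, E-boxes of the kind that neuronal basic helix-loop-helix factors bind, and for TCAGCAC and GGACAGC, the left and right parts of the RE1 element that REST binds. These letters occur in 14.7%, 17.9%, 4.52% and 6.03% of all 35116 windows, in that order, and a match is a description of letters, not a site. The 250 bases before the start are given 5′ to 3′ with matches in capitals, all on the plus strand, at chr3:115623260-115623509 for GAP43, chr10:103276888-103277137 for INA and chr5:72179537-72179786 for a start inside MAP1B:
GAP43: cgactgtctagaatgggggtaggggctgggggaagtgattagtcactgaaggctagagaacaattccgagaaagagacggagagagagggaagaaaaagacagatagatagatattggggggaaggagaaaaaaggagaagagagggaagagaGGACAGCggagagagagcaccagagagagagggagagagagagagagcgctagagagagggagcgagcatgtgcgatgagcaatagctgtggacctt
INA: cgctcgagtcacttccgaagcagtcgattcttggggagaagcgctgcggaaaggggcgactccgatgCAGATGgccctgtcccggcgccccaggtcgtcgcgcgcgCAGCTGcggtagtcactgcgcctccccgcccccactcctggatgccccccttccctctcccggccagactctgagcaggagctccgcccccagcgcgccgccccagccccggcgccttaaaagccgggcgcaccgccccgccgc
MAP1B: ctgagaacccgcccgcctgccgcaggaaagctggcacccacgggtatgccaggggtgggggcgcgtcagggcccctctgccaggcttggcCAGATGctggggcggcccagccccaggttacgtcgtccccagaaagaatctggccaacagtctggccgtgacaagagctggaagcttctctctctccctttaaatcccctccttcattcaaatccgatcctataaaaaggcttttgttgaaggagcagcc
The GAP43 window held GGACAGC from base -97 relative to the start, and none of the other 3 words. INA held CAGATG from base -183 and CAGCTG from base -144. The MAP1B window held CAGATG from base -160, whereas the window at the first MAP1B start held no match, and a MAP2 window held CAGATG from base -11. The windows of TUBB2B and TUBB3 held none of the 4 words.

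NEFL and NEFM encode the light and medium neurofilament chains, which assemble together, and INA encodes alpha-internexin, which joins them in central axons. NEFM (chr8:24913758-24919098, plus strand, ENSG00000104722.14) and NEFL (chr8:24950955-24956721, minus strand, ENSG00000277586.4) are neighbours, with 31856 bases between them (hg38). INA lies apart at chr10:103277138-103290346 (plus strand, ENSG00000148798.11). Opposite-strand genes overlap 18.8% of the exon bases of NEFL, 29.3% of NEFM and 13.9% of INA, the last being NT5C2, so where counting ignored strand these reads cannot be told apart.

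In H82, NEFL gave 119.96, 116 and 114 TPM untreated and 26.1, 49.0 and 46.5 TPM treated. The treated mean of 40.6 ± 12.6 TPM was 2.88-fold below 116.9 ± 2.82 TPM (SD, n = 3 each), with no overlap and a difference of -1.56 ± 0.24 (log2, SE; limma adjusted p = 0.00172), or -1.0 relative to the median of all genes. NEFM gave 70.6, 68.4 and 71.9 TPM untreated and 18.7, 29.8 and 32.3 TPM treated. It fell in the same libraries and by a like amount, 2.61-fold, with a difference of -1.39 ± 0.21 (limma adjusted p = 0.00163), or -0.83 relative to the median of all genes.

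In H146 both neurofilament genes were near 0 in untreated cells. NEFL gave 0.401, 0.0665 and 0.202 TPM untreated and 4.77, 3.81, 2.38 and 1.66 TPM treated. NEFM gave 0.419, 0.241 and 0.638 TPM untreated and 7.82, 6.13, 2.82 and 2.12 TPM treated. Every treated library was above every untreated one for both genes, and among the treated libraries 1 and 2 were above 3 and 4. These pairs also parted in the marker sums given with STMN2. The difference was 1.71 ± 0.28 for NEFL (log2, SE; limma adjusted p = 0.0018) and 1.88 ± 0.36 for NEFM (limma adjusted p = 0.00378) on the log2(TPM + 1) scale, which understates changes of low genes. Relative to the median of all genes these were 1.46 and 1.63. The ratio of mean TPM, with nothing added, was 14.1 for NEFL and 10.9 for NEFM. Even so, the highest treated H146 libraries, at 4.77 TPM of NEFL and 7.82 TPM of NEFM, stayed below the lowest treated H82 library, at 26.1 and 18.7 TPM.

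The balance of both chains went with the line. NEFL exceeded NEFM in every H82 library, by 1.59 to 1.70 times untreated and 1.40 to 1.64 times treated, and NEFM exceeded NEFL in every H146 library, with NEFL at 0.276 to 0.959 of NEFM untreated and 0.610 to 0.845 treated. In untreated H146 this ratio rests on values under 1 TPM.

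**Figure D4:**
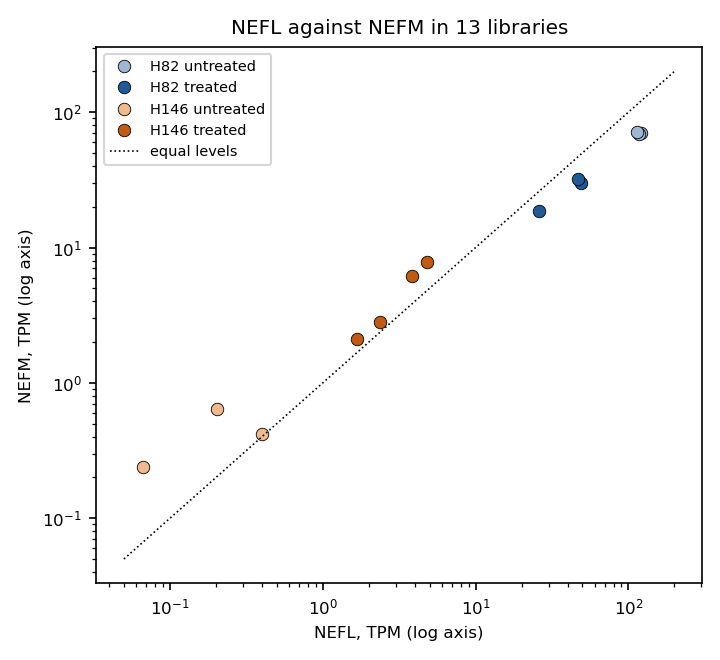
NEFL (horizontal) against NEFM (vertical) in each of the 13 libraries, both in TPM on log axes, with points coloured by line and treatment and a dotted line of equal levels. H82 libraries lie below the line, at 114 TPM of NEFL or more untreated and 26.1 to 49.0 TPM treated, and H146 libraries lie above it, at 0.401 TPM of NEFL or less untreated and 1.66 to 4.77 TPM treated.

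INA gave 31.6, 38.6 and 32.6 TPM in untreated H82 and 3.40, 25.3 and 9.04 TPM in treated H82. All treated libraries were below the untreated ones, but they spread widely, and the difference was -1.74 ± 0.58 (log2, SE; limma adjusted p = 0.0366), or -1.18 relative to the median of all genes. The highest treated value came from the H82 treated library 2, without which the difference was -2.40, and the lowest from the H82 treated library 1, without which it was -1.11. Both were still called. The call was lost without any of the 3 untreated libraries or the H82 treated library 3 (-1.65 to -1.79), and with median of ratios library sizes (-1.29). In H146 it gave 298, 301 and 259 TPM untreated and 221, 211, 264 and 279 TPM treated, groups that overlapped, and the difference of -0.24 ± 0.13 (limma adjusted p = 0.179) was not called. It was called, at -0.55, with median of ratios library sizes.

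The make-up of neuronal filament RNA differed by line. Of the summed TPM of NEFL, NEFM, NEFH, INA and PRPH, INA took 96.7% ± 0.11 (SD, n = 3) in untreated H146 and 94.9% ± 2.20 (SD, n = 4) in treated H146. In untreated H82, NEFL took 36.0% ± 0.84, NEFH, the heavy chain, 30.7% ± 1.85, NEFM 21.6% ± 0.35 and INA 10.6% ± 1.39 (SD, n = 3). In treated H82, NEFH took 46.5% ± 11.3, NEFL 26.8% ± 5.95, NEFM 18.2% ± 5.12 and INA 7.07% ± 4.60. NEFH itself stood at 99.8 ± 7.86 TPM untreated and 80.4 ± 47.3 TPM treated in H82, which did not pass the test.

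Ordered by mean level, 7 of the 10 members had both H146 groups above both H82 groups: TUBB2B, MAP1B, MAP2, MAPT, STMN2, GAP43 and INA. In that order the libraries of neighbouring groups overlapped for TUBB2B between untreated and treated H82, for MAP2 within both lines, and for STMN2 and INA between untreated and treated H146. NEFL and NEFM had the reverse order, untreated H82 highest and untreated H146 lowest, and all neighbouring groups were separate. TUBB3 was ordered treated H146, untreated H146, untreated H82 and treated H82. Each H146 group overlapped the next group in that order, treated H146 lay above untreated H82 without overlap, and treated H82 lay below all the others. How many of all genes have both H146 groups above both H82 groups was not counted. The 7 of 10 therefore describes these members alone.

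To ask whether the response differed between the lines, the interaction of line and treatment was tested in 1 limma fit over all 13 libraries. The change in H146 lay above that in H82 for 6 members and below it for 1, so that 7 were called beside 59.3% of all 24374 genes tested (46% above, 13.3% below). The 2 neurofilament chains differed by 3.27 ± 0.40 (NEFL, log2, SE; limma adjusted p = 3.01e-05) and 3.27 ± 0.47 (NEFM, limma adjusted p = 0.000104). STMN2 differed by 3.49 ± 0.87 (limma adjusted p = 0.00427), and TUBB3 by 1.45 ± 0.31 (limma adjusted p = 0.00149) with the limit on its level given above and 0.38 without a call under quantile normalization. MAP1B differed by 1.27 ± 0.35 (limma adjusted p = 0.00717), a smaller fall in H146 rather than a rise, and by 0.47 without a call under median of ratios library sizes. INA differed by 1.51 ± 0.61 (limma adjusted p = 0.0499), a call at the edge of the threshold that was lost, at 0.88 to 1.57, when any library but the H82 treated library 2 was left out. MAPT went the other way, by -1.92 ± 0.46 (limma adjusted p = 0.00348). For TUBB2B the difference was -0.38 ± 0.47 (limma adjusted p = 0.497), for MAP2 -0.53 ± 0.46 (limma adjusted p = 0.339) and for GAP43 0.06 ± 0.22 (limma adjusted p = 0.839), none of them called. TUBB2B was called at -0.90 without the H82 treated library 3, MAP2 at -1.23 with median of ratios library sizes and -0.92 without the H82 treated library 1, and GAP43 at -2.19 with 0.1 TPM added before the log and -0.81 under quantile normalization.

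Related genes of the cytoskeleton were counted in the same fits, from lists chosen by function. The counts of every list below stand beside 45.5% of all genes lower and 13.1% higher in H82. In H146 these shares were 15.5% lower and 32.5% higher. Of 12 other alpha and beta tubulins, 2 of 10 tested fell and 1 rose in H82, and 2 of 9 fell and 4 rose in H146. TUBA1A, the alpha tubulin of young neurons, rose by 1.04 (log2) in H82, and the widest tubulin changes in H146 were TUBB2A at -1.27 and TUBB4A, a beta tubulin of brain, at 2.66. TUBB1, the platelet form, had H82 means of 4.27 ± 0.70 TPM without and 0.253 ± 0.19 TPM with the drug (SD, n = 3 each), a difference of -2.08. It reached the filter through untreated libraries alone and so had to differ, which makes it a description although it is 1 of the 2 tubulins counted as lower in H82. The median difference of the list was 0.11 in H82 and 0.10 in H146. With median of ratios library sizes the counts became 2 lower and 3 higher in H82 and 2 lower and 1 higher in H146, with medians of 0.59 and -0.21, and under quantile normalization the H82 median was -0.07.

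Of 18 other MAPs and microtubule end-binding proteins, 2 of 12 tested fell and 3 rose in H82, and 2 of 18 fell and 8 rose in H146, at medians of -0.35 and 0.32. With median of ratios library sizes the H146 split turned to 6 lower and 4 higher and the H82 median to 0.11. The CAMSAP genes, which encode proteins that hold microtubule minus ends, included the widest H82 fall (CAMSAP1, -1.65) and the widest H146 rise (CAMSAP2, 1.81). The plus-end protein gene MAPRE3 had the widest H146 fall at -1.20, and MAP7D1 the widest H82 rise at 1.49. Of 14 other stathmins and growth cone genes, 7 of 13 tested fell and 2 rose in H82, and 3 of 14 fell and 4 rose in H146, at medians of -0.63 and -0.04, and with median of ratios library sizes 4 fell and 2 rose in H82, and 5 fell and 4 rose in H146. STMN3, a neuronal stathmin, fell by 2.12 in H82, from 95.6 ± 15.1 to 22.7 ± 11.6 TPM (SD, n = 3 each), and DPYSL3, a collapsin response mediator, rose by 2.64 in H146, from 139 ± 24.5 (SD, n = 3) to 863 ± 80.7 TPM (SD, n = 4). MARCKSL1 was the widest H82 rise at 1.03, and BASP1, a growth cone membrane protein gene, the widest H146 fall at -0.77.

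Of 10 other intermediate filament genes, 2 of 9 tested fell and 3 rose in H82, and 6 of 8 fell and 1 rose in H146. NES, which encodes the neural progenitor filament nestin, fell by 3.35 in H82, from 38.0 ± 3.05 to 2.82 ± 0.20 TPM (SD, n = 3 each), and the epithelial keratin gene KRT8 differed there by 2.77. In H146 the epithelial keratin gene KRT19 fell by 3.97, from 929 ± 85.0 (SD, n = 3) to 58.4 ± 3.87 TPM (SD, n = 4), and VIM, the mesenchymal filament gene, differed by 0.78. KRT8 and KRT18 in H82 and VIM in H146, which are among the 3 and 1 genes counted as higher, reached the filter through treated libraries alone and so had to differ, and they are given as descriptions. The list's median was -0.14 in H82 and -1.21 in H146, where that of all genes was -0.56 and 0.25. In H82 it turned to 0.29 with median of ratios library sizes and 0.55 under quantile normalization, with 1 gene lower in place of 2, while in H146 it was -1.48 and -1.46.

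Of 15 subunits of axonal motors, 7 fell and 3 rose in H82, and 2 fell and 8 rose in H146, at medians of -0.69 and 0.48. DYNC1I1, a dynein intermediate chain of neurons, fell by 2.02 in H146. Its difference of 2.09 in H82, counted among the 3 higher motor genes, is a description, since it reached the filter there through treated libraries alone. KIF21B fell by 2.22 in H82 and KIF21A rose by 1.29 in H146. Of 6 spectrins and neuronal ankyrins, 3 fell in H82, led by SPTAN1 at -1.18, and 1 fell and 3 rose in H146, with ANK2 at -1.60 and ANK3 at 1.46, at list medians of -0.54 and 0.46. Of 9 kinases of tau and other MAPs with CDK5 activators, 1 fell and 1 rose in H82 (GSK3B at -1.26 and CDK5 at 1.06), and 5 of 8 tested rose in H146, led by CDK5R2 at 1.58, at list medians of -0.28 and 0.61. With median of ratios library sizes the H146 counts of these 3 lists became 2 lower and 5 higher for the motors, 1 and 1 for the spectrins and ankyrins, and 1 and 2 for the kinases, and the H82 median of the kinases turned to 0.20. Under quantile normalization that of the spectrins and ankyrins turned to 0.06.

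**Figure D5:**
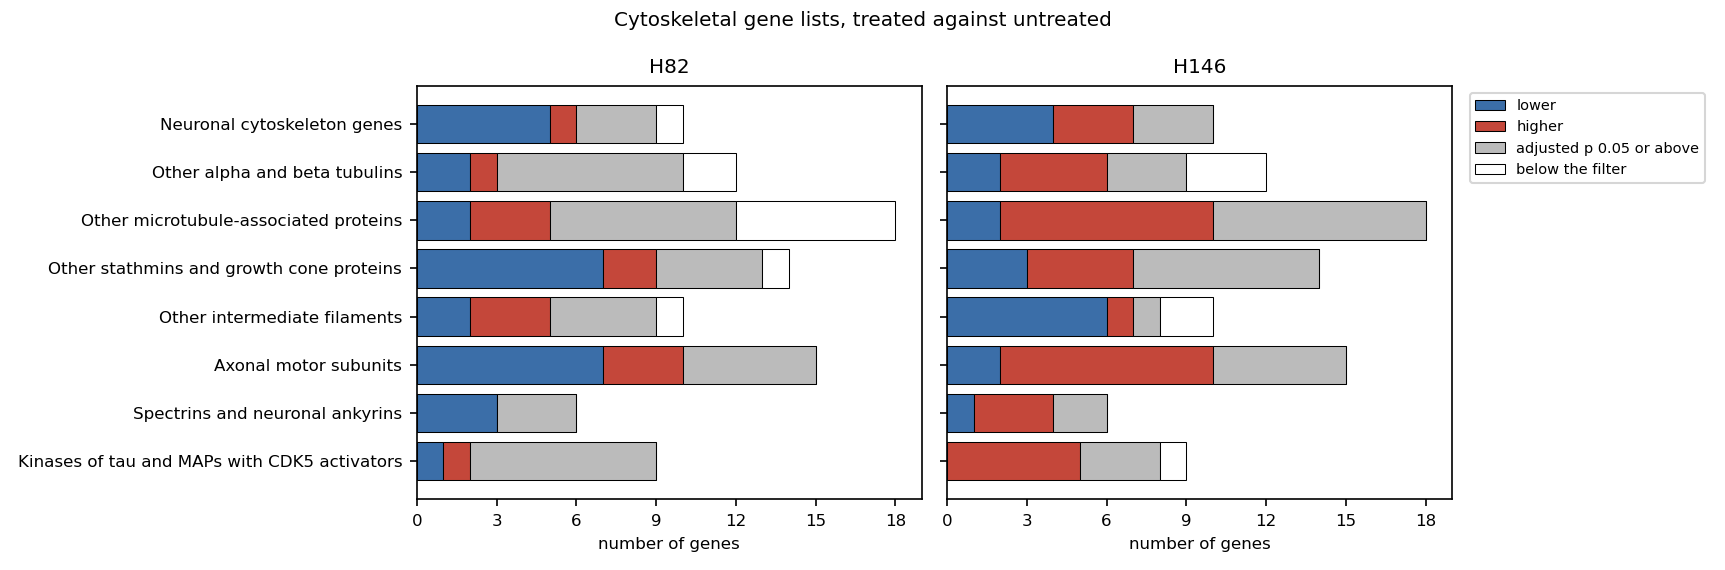
Number of genes (horizontal axis) of each cytoskeletal list that were lower, higher, not called or below the filter in H82 (left) and H146 (right). The growth cone and motor lists hold 7 lower genes each in H82 (of 13 and 15 tested), where 45.5% of all genes were lower. The MAP and motor lists hold 8 higher genes each in H146 (of 18 and 15 tested), where 32.5% of all genes were higher. These counts become 4 and 4 in H82 and 4 and 5 in H146 with median of ratios library sizes.

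The genes whose pattern was most like each member's were sought by the root-mean-square difference in log2(TPM + 1) over the 13 libraries, each gene centred on its mean, among 24374 genes. TUBB3 was closest to TEP1 (0.131) and RNF44 (0.156), at a spread of its own of 0.644. MAP1B was closest to BRSK2 (0.258) and to DPYSL2, a collapsin response mediator gene (0.274). DPYSL2 fell by 1.86 in H82 and 0.52 in H146, and that it moved as MAP1B did follows from how it was picked. NEFL was closest to PRAME (0.378) and then to its neighbour NEFM (0.510), and NEFM to OLFM1 (0.471) and DQX1 (0.486). MAP2 was closest to PPL (0.270) and KCTD16 (0.278), and MAPT to CTB-55O6.8 (0.250) and ABRACL (0.254). TUBB2B was closest to MYO1D (0.335) and PLCB4 (0.364), GAP43 to TNRC18 (0.280) and BAHCC1 (0.370), and INA to INSM2 (0.420) and CCDC64 (0.439). STMN2 had the least close partners, SEZ6 at 0.625 and CPLX1 at 0.671. All of these distances share the 13 libraries and the gap between the lines, and no test goes with them.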

How the data were processed

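Per the study's methods and the processing notes, reads were trimmed with Trim Galore 0.4.4, aligned to hg38 and counted per gene with STAR at default settings with GENCODE 28, and tested by the authors with DESeq2. The authors deposited 1 table of TPM per line, and depth cannot be read from it. Positions come from GENCODE 44, and promoters from the RefSeq table of GRCh38.p14. The 10 genes and the related lists were chosen with earlier results of these data known.

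Libraries were grouped by the labels. Each line was fitted with limma 3.58.1 in R 4.3.3 (lmFit, then eBayes with a trend) on log2(TPM + 1). Genes short of 1 TPM in 3 or more of the fitted libraries were left out, p-values were adjusted by Benjamini-Hochberg over the rest, and the two-sided threshold was 0.05. The lines were compared by the interaction term in 1 fit over 13 libraries. A member below the filter was given an exact permutation test. The steps were tested on simulated data in which few genes were changed and the rest did not shift. These data differ from that setting, so the simulation does not bear on the choice of library sizes. No replicate pair shared values, with correlations of 0.965 to 0.992. All 10 members were named, with the called gene of the widest rise and fall in each list and line, the 2 nearest genes to each member, and DPYSL2 and NEFH added after their values were seen. Alternatives were another constant, filters, library sizes, a replicate block, weights and each library left out; 2 settings without pairs of H146 treated libraries were chosen after seeing the data.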

Additional observations from a re-analysis of the deposited data

Results flagged for a closer look

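A total of 7 of the 10 genes responded differently in the 2 lines by the interaction term of the limma fit over 13 libraries, where 59.3% of all genes tested did. The change in H146 minus that in H82, in log2(TPM + 1), was 1.45 for TUBB3, 1.27 for MAP1B, 3.49 for STMN2, 3.27 for NEFL, 3.27 for NEFM and 1.51 for INA, and -1.92 for MAPT. Relative to the median difference of all genes these were 0.70, 0.52, 2.74, 2.51, 2.52, 0.75 and -2.68 in the same order. For NEFL and NEFM all treated H82 libraries lay below the untreated ones and all treated H146 libraries above them. The H146 part is a description, since both genes reached the filter there through treated libraries alone and so had to differ. TUBB3 was below the filter within H82. In treated H146, the only group of 4 libraries, no single library stood far from the others for a member. The other groups have 3 libraries each and were not examined for this, treated H82 among them.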

How the results depend on the processing

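The count of members higher in H82 was 1, became 0 with a mean TPM above 2 and 2 with median of ratios, quantile normalization or an adjusted p under 0.1, and ranged from 0 to 1 with 1 library left out. GAP43 left the filter with a mean TPM above 2 or without any H82 treated library, and MAPT was the gene gained, also without treated library 3. The count higher in H146 was 1 in place of 3 without treated libraries 1 and 2, and without 3 and 4, where NEFL and NEFM left the filter. The count of members whose change in H146 lay below that in H82 was 1, became 2 with 0.1 TPM added, median of ratios or library weights and 3 with quantile normalization, and ranged from 1 to 2 with 1 library left out. Of values that changed sign, TUBB2B in H82 became 0.0903 (median of ratios) and ranged from -0.68 to 0.12 with 1 library left out, and MAP2 in H82 0.37 (median of ratios), 0.90 (quantile normalization), 0.34 (library weights), 0.21 (ratio of means) and -0.49 to 0.39 with 1 library left out. STMN2 in H146 ranged from -0.36 to 0.0100 with 1 library left out and became 0.29 without treated libraries 3 and 4. The difference between the lines became 0.00676 for TUBB2B with library weights, and for GAP43 -2.19 with 0.1 TPM added, -0.51 with median of ratios, -0.81 with quantile normalization, -0.0787 without mitochondrial genes, and -0.0610 to 0.11 with 1 library left out. Replicate numbers did not pair the libraries (correlations of same-numbered libraries -0.11 to 0.03): with a replicate block 10958 genes were called in H82 and 7126 in H146, against 11584 and 9389, MAP2 in H146 was -0.52 and the line difference of INA 1.44, both no longer called. Where no filter is named, the cause was not tested. Of 572 values of single genes under these alternatives, 505 kept their direction and their side of the threshold. A ratio of means has no p-value and was counted among the 505 when it lay within the residual SD of the main value. Settings in which a gene left the filter give no value and are not among the 572. TPM hold no depth, so levels under 1 TPM have no counting error here.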
